A study of Capra hircus with 2 samples.

Results

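miR-320 is a microRNA (miRNA), a small RNA that binds messenger RNAs and lowers their output. It was described here as the 1 entry whose name begins with miR-320 among the 346 conserved goat miRNAs listed by the study. All sequenced small RNAs that matched the listed sequence exactly from its first base over 18 nt or more were taken as its reads. The samples were mammary gland tissue of Xinong Saanen dairy goats, a dairy breed, aged 2.5 years. Each stage, the dry period (no milking) and peak lactation (highest milk yield), had 1 library, made from the pooled RNA of 3 goats. The sample labels date the dry period to 75 and peak lactation to 320 days after lambing, whereas the text of the study assigns these days in reverse. The stage names of the titles were used, and the clean read totals of the files are those that the study lists for the stages so named. With 1 pooled library per stage the spread between goats was not measured, and every interval below covers the counting of reads only.

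Most miRNAs are cut out of a long transcript by the nuclease Drosha, and the resulting hairpin is cut by Dicer into a short duplex. The miR-320 hairpin is known in mouse as an exception, since its transcript begins at the hairpin, carries a cap and reaches Dicer without Drosha. Mainly the 3p strand, the strand from the 3′ side of the hairpin, is loaded from it into Argonaute, the protein that holds a mature miRNA. The first bases of a miRNA after base 1, called the seed (bases 2 to 8), pair with target messenger RNAs. The 5′ end of a read therefore decides its seed, while the 3′ end can be trimmed or receive extra A or U from tailing enzymes. No sample without Drosha was sequenced, so dependence on Drosha was not tested.

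The listed goat sequence has 22 nt and is assigned to the 3p arm. It is shown with the seed in capitals, because the shifted reads described further down change this seed.
miR-320: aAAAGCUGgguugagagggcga
The sequence opens with 4 A in a row. None of the other 345 listed miRNAs shares its seed, so no other listed miRNA could be grouped with it. The goat gene is MIR320 (chi-mir-320) in the RefSeq annotation of assembly ARS1.2, with PHYHIP before it and POLR3D, a subunit of RNA polymerase III, after it on the chromosome. A hairpin sequence was not used here, so bases after base 22 that the gene encodes could not be told apart from bases added later.

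Clean reads numbered 14851375 at the dry stage and 15712891 for peak lactation. By the exact match from the first base used here, the conserved miRNAs took 61.1% of them at the first stage and 14.4% at the second. Reads of 24 to 30 nt made up 10.3% and 31.6%. The 6 mammary epithelial miRNAs listed as tissue markers (the miR-200 family and miR-205) were detected in both libraries, with summed levels of 2687 and 1342 reads per 1000000 clean reads (RPM). Markers of other cells were also present in both libraries. Summed levels in the dry period and in peak lactation were 110 and 190 RPM for 3 red blood cell miRNAs, 481 and 176 RPM for 4 immune cell miRNAs, and 7241 and 3847 RPM for 4 muscle miRNAs. The muscle sum was almost only miR-1, with 7175 and 3835 RPM. The others were far lower, with 61.4 and 10.1 RPM for miR-206, 3.37 and 1.34 RPM for miR-133a and 1.41 and 0.382 RPM for miR-133b. The endothelial miR-126 had 113 and 67.6 RPM. The part of these cell types in the changes of miR-320 was not tested.

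miR-320 was among the most abundant miRNAs of the gland and its level per clean read was lower at peak lactation. Its share of the conserved miRNA reads counted here was higher there. In the dry period library 144554 reads were counted, or 9733 RPM, a share of 0.973% (Wilson 95% interval 0.968 to 0.978%) of all clean reads. For peak lactation 50941 reads were counted, or 3242 RPM and 0.324% (Wilson 95% interval 0.321 to 0.327%). It ranked 8 in the dry period against 10 at peak lactation among the 346 conserved miRNAs. The level in the dry period was 3.002 times that at peak lactation, a log2 fold change of -1.59 (95% interval -1.60 to -1.57, peak lactation over dry period). By the Audic-Claverie test of the study's methods, which compares 2 libraries and not the animals behind them, the log10 of the two-sided p was -11327. In pooled tissue, fewer cells that make miR-320 and less miR-320 per cell cannot be told apart.

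This decrease was close to that of the typical conserved miRNA. Of 257 conserved miRNAs with at least 1 RPM in either library, 67.7% (174 miRNAs) were called lower at peak lactation, that is with a log2 fold change below -1 and p below 0.01, and miR-320 was among them. The median log2 fold change of the 257 was -1.44, with quartiles of -2.15 and -0.92, so that the value of miR-320 minus the median was -0.15 and 44.4% of the tested miRNAs had a lower value. The direction depended on the denominator. Per read of conserved miRNAs as counted here, miR-320 made up 1.59% in the dry period against 2.25% at peak lactation. This is a log2 fold change of 0.50 (95% interval 0.48 to 0.51). These totals were 9081514 and 2266176 reads. The study, which matched reads to miRNA precursors, reported fewer for the dry period and more for peak lactation. The rise therefore rests on the totals counted here, and the study's totals were not used as a denominator. They fell less between the stages than the reads of miR-320, so over them its share would be lower at peak lactation. Per read of conserved miRNAs as counted here, the median log2 fold change of the 257 was 0.64, above the 0.50 of miR-320. Under the TMM factors of edgeR the log2 fold change of miR-320 was -0.29 and it was not called. Each denominator moves all log2 values by the same amount, so the distance of miR-320 to the median was bound to stay at -0.15.

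**Figure D1:**
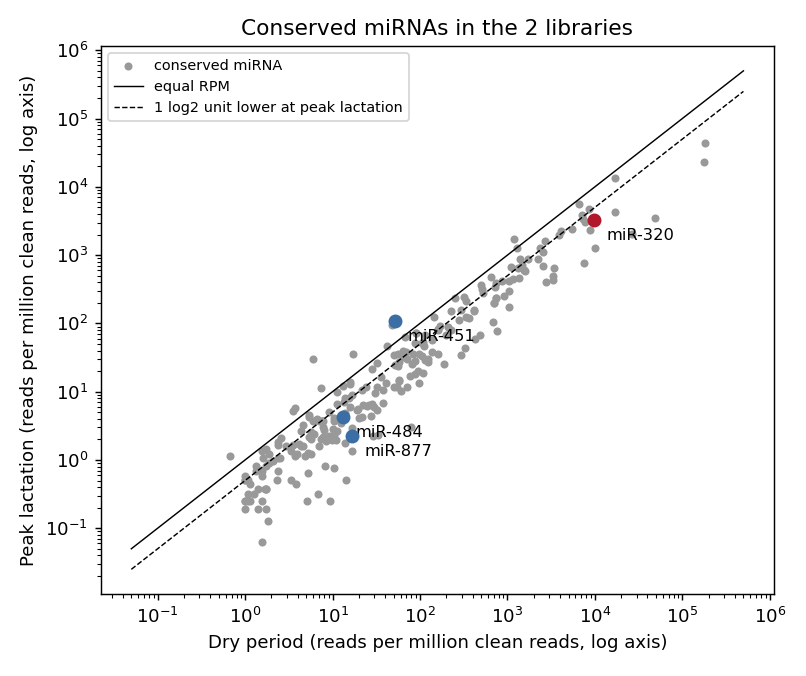
Each point is 1 of the 257 tested conserved miRNAs, placed by its reads per 1000000 clean reads in the dry period (x axis) and at peak lactation (y axis), both on log axes. miR-320, at 9733 and 3242 RPM, lies in the upper part of the cloud and just below the dashed line that marks a decrease of 1 log2 unit, with miR-484 and miR-877 low in the cloud and miR-451 above the line of equal levels.

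Other miRNAs made outside the usual route were compared with it. miR-484, whose precursor also begins at a capped transcription start, was far rarer, with 197 reads (13.3 RPM) in the dry period and 67 reads (4.26 RPM) at peak lactation. The log2 fold change was -1.64 with a 95% interval of -2.04 to -1.24, which held the value of miR-320 (Audic-Claverie exact p = 7.4e-18, Benjamini-Hochberg adjusted p = 1.3e-17). miR-877, a mirtron cut out by splicing, fell from 247 reads (16.6 RPM) to 35 reads (2.23 RPM), which is -2.90 on the log2 scale (95% interval -3.41 to -2.39, Audic-Claverie exact p = 2.3e-43, adjusted p = 4.9e-43). The mirtron miR-1224 had 3 reads in the dry period against 1 at peak lactation and was not tested. Both tested members of this group were thus called lower, beside 67.7% of all conserved miRNAs tested. miR-451, a red blood cell miRNA that needs Drosha but is matured without Dicer, was higher at peak lactation, with 762 and 1696 reads and a log2 fold change of 1.07.

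The miRNAs nearest to miR-320 by their levels in both libraries were found by the distance between log2 RPM values, over these 2 libraries only. miR-29a was closest at a distance of 0.34, with 7740 RPM in the dry period and 3073 RPM at peak lactation. It was followed by miR-423-5p (0.42), miR-21 (0.48), miR-1 (0.50) and miR-143 (0.57). In the dry period miR-320 stood between miR-199a-3p (9963 RPM) and miR-21 (8856 RPM), with let-7g and miR-143 as the next neighbours. At peak lactation it stood between miR-423-5p (3390 RPM) and miR-29a (3073 RPM), with let-7b and miR-140 beyond them. Among these neighbours the log2 fold change ran from -3.79 for let-7b to -0.86 for miR-143, so miRNAs close to miR-320 in rank at one stage differed widely in their change.

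Reads of miR-320 carried many different 3′ ends. They fell into 468 tags (distinct sequences) in the dry period against 362 at peak lactation. The 265 tags present in both libraries held 99.8% of the reads in each. Tags seen once made up 38.5% and 41.2% of the tags. The same 10 tags were the most frequent in both libraries and held 89.8% of the reads in the dry period against 87.7% at peak lactation. They are printed with the bases after the part identical to the listed sequence in capitals, because these bases are what differs between them.
Listed form: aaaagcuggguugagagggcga
Listed + U: aaaagcuggguugagagggcgaU
Listed + A: aaaagcuggguugagagggcgaA
Base 21 + U: aaaagcuggguugagagggcgU
Listed + AU: aaaagcuggguugagagggcgaAU
Listed + UU: aaaagcuggguugagagggcgaUU
Base 21 form: aaaagcuggguugagagggcg
Listed + AA: aaaagcuggguugagagggcgaAA
Base 21 + UU: aaaagcuggguugagagggcgUU
Listed + UA: aaaagcuggguugagagggcgaUA
Of these 10 tags, 8 were longer than the listed sequence or carried another base in its last position. A and U were their only bases in capitals.

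The listed form itself was the most frequent, but it did not hold the majority of the reads. It had 62877 reads in the dry period, or 43.5% (Wilson 95% interval 43.2 to 43.8%), and 19371 reads at peak lactation, or 38.0% (Wilson 95% interval 37.6 to 38.4%). The form with 1 further U had 21101 reads (14.6%) in the dry period and 6906 reads (13.6%) at peak lactation. The form with 1 further A had 20380 reads (14.1%) and 7398 reads (14.5%). The order of these 2 forms was thus exchanged between the libraries, with U ahead in the dry period and A ahead at peak lactation. The form with U in place of base 22 had 8348 reads (5.78%) and 3000 reads (5.89%). The forms with 2 further bases were rarer. The AU form took 3.33% in the dry period against 4.82% at peak lactation, the UU form 3.02% and 3.62%, the AA form 1.23% and 2.09%, and the UA form 0.859% and 1.08%. Each of these 4 forms had a larger share of miR-320 reads at peak lactation. Reads that ended at base 21 with nothing after it were 2.31% and 2.90%.

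Reads with a 3′ tail were the majority of miR-320 in both libraries and more frequent at peak lactation. A tail here is every base after the stretch identical to the listed sequence. Tails were found on 77828 reads in the dry period, or 53.8%, and on 29911 reads at peak lactation, or 58.7% (Wilson 95% interval 58.3 to 59.1%). The difference was 4.88 percentage points (Newcombe 95% interval 4.38 to 5.38). Over all reads the mean tail was 0.785 nt in the dry period against 0.917 nt at peak lactation. Tails of 1 nt were not more frequent at peak lactation, since they were on 35.9% of the reads in the dry period against 35.3% at peak lactation. Tails of 2 nt were on 12.4% and 15.6%, tails of 3 nt on 4.58% and 6.32%, and tails of 4 nt on 0.807% and 1.24%. The longer the tail, the smaller was the decrease per clean read. The log2 fold change was -1.78 for the listed form, -1.61 for tails of 1 nt, -1.26 for 2 nt, -1.12 for 3 nt and -0.97 for 4 nt (95% interval -1.11 to -0.83). A smaller decrease than that of the listed form was not limited to tailed reads. Untailed reads that ended inside the listed sequence stood at -1.30 (95% interval -1.38 to -1.21).

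Tails consisted almost entirely of A and U. Those of U alone were on 25.6% of miR-320 reads in the dry period against 25.8% at peak lactation, and the interval of the difference held 0 (-0.258 to 0.626 percentage points). Those of A alone were on 16.4% and 17.6%, a difference of 1.199 points (Newcombe 95% interval 0.819 to 1.58). Tails that mixed A and U were on 8.37% and 11.4%, a difference of 3.02 points (2.71 to 3.33). Tails with a C or a G were on 3.39% and 3.86%. The mixed tails thus made the largest part of the increase at peak lactation. A mixed tail has at least 2 nt, and tails of 1 nt were not more frequent there. Whether the mix of bases changed apart from tail length was not tested. Among reads that held the whole listed sequence, base 23 was A in 23.6% and U in 23.6% of the dry period reads. At peak lactation A was there in 28.1% and U in 24.7%. Base 23 was G in 1.07% and 1.17% of them and C in 0.251% and 0.377%. Where tails were present, 60.5% ended in U in the dry period against 60.2% at peak lactation.

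The site of the tail was usually the listed end or the base before it. Of all miR-320 reads, 41.0% in the dry period against 45.3% at peak lactation held the whole listed sequence and went on, a difference of 4.29 points (Newcombe 95% interval 3.79 to 4.80). Another 10.1% and 11.2% were identical through base 21 and then carried other bases. Tails after base 20 were on 1.83% and 1.59% of the reads, and tails after base 18 or 19 on 0.903% and 0.640%. The tails placed further inside were therefore less frequent at peak lactation, while those at the end were more frequent.

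Reads of miR-320 were accordingly longer at peak lactation. Their mean length was 22.59 nt ± 0.857 (SD over 144554 reads) in the dry period and 22.71 nt ± 0.957 (SD over 50941 reads) at peak lactation, a difference of 0.129 nt. The median length was 22 nt in the dry period against 23 nt at peak lactation. Reads of 22 nt made up 51.3% and 45.4%, reads of 23 nt 32.0% and 31.5%, and reads of 24 nt 10.8% and 14.8%. Reads of 25 nt made up 2.66% and 4.08%. Reads under 21 nt were few in both libraries, with 0.398% and 0.373% at 20 nt. The longest tags had 27 nt in the dry period against 30 nt at peak lactation.

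**Figure D2:**
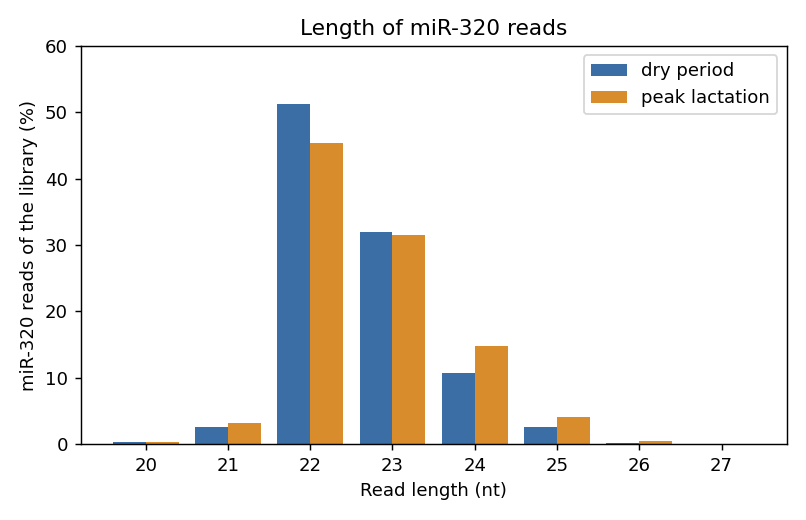
The bars give the share of miR-320 reads (%) at each read length from 20 to 27 nt in the dry period and peak lactation libraries, 1 library each. At 22 nt the dry period bar is higher (51.3% against 45.4%), and at 24 and 25 nt the peak lactation bars are higher.

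The 5′ end of miR-320 was far more uniform than its 3′ end, yet shifted starts were found in both libraries. Tags that began up to 3 nt before or after the listed start, and were identical over at least 18 nt, were added for this count. Together they had 11871 of 156425 reads in the dry period, or 7.59%, and 3072 of 54013 reads at peak lactation, or 5.69%. The difference was -1.90 percentage points (Newcombe 95% interval -2.13 to -1.66). Each shift changes the seed, so the most frequent tag of each start in the dry period is printed with its seed in capitals.
1 nt earlier: gAAAAGCUggguugagagggcga
Listed start: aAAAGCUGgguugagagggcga
1 nt later: aAAGCUGGguugagagggcga
2 nt later: aAGCUGGGuugagagggcgaau
No listed miRNA other than miR-320 had any of these 4 seeds.

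Most shifted reads began 1 nt late. This start, which lacks the first A, had 9579 reads in the dry period, or 6.12%, and 2525 reads at peak lactation, or 4.67% (Wilson 95% interval 4.50 to 4.86%). Starts 2 nt late had 694 and 138 reads, or 0.444% and 0.255%. Starts 1 nt early had 1582 and 401 reads, or 1.01% and 0.742%. All 3 shifted starts had a lower share at peak lactation, with differences of -1.45, -0.188 and -0.269 percentage points in this order, and none of the 3 Newcombe intervals held 0. The extra base of the early start was G in 97.1% of its reads in the dry period against 93.5% at peak lactation. Starts 3 nt late had 5 and 6 reads, and starts 2 or 3 nt early had at most 8 reads in a library.

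The 3′ end of a read went with its 5′ start, and in the same order in both libraries. Reads that ran past base 22 were 7.59% of those that began 1 nt early in the dry period, 41.0% of those at the listed start, 64.1% of those that began 1 nt late and 82.9% of those that began 2 nt late. At peak lactation these shares were 9.48%, 45.3%, 64.6% and 82.6%. Reads that stopped at base 21 were most frequent among the early reads, with 15.0% at the dry stage and 20.2% at peak lactation, compared with 3.17% or less at the other 3 starts. As a result the mean length changed by about 1 nt while the start moved by 3. It was 22.92, 22.59, 22.18 and 21.80 nt from the earliest to the latest start in the dry period and 22.96, 22.71, 22.24 and 21.84 nt at peak lactation. The intervals of reads that ran past base 22 did not overlap between neighbouring starts in either library.

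**Figure D3:**
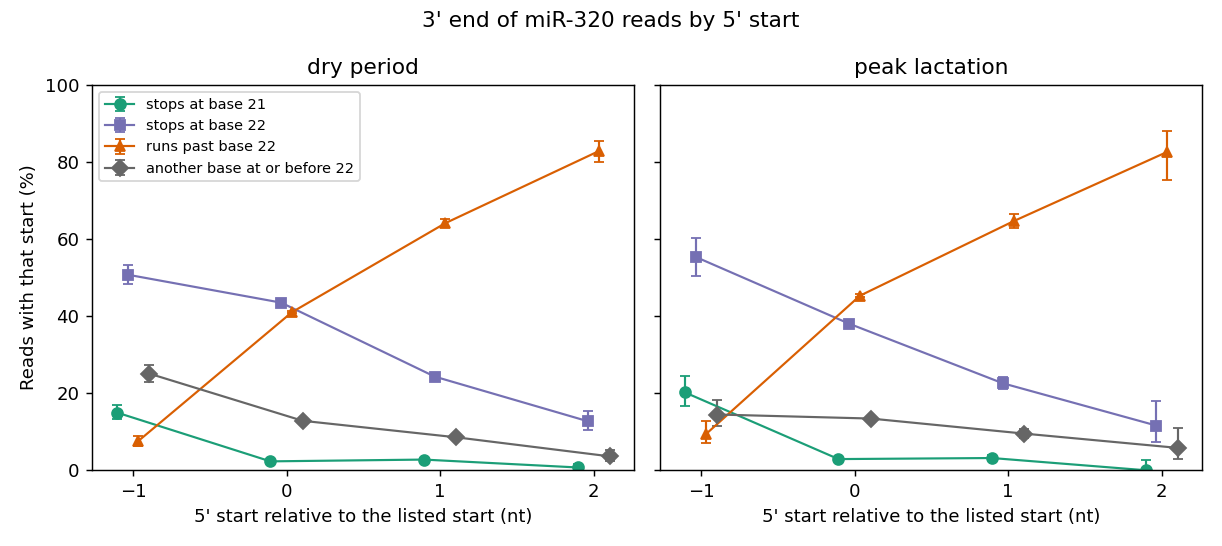
For each 5′ start of miR-320 reads (x axis, nt from the listed start, minus for earlier), the points give the share of its reads (%) that stop at base 21, stop at base 22, run past base 22 or carry another base at or before base 22, with Wilson 95% intervals as bars and points set slightly apart. In both libraries the share that runs past base 22 climbs from under 10% for the early start to above 80% for the start 2 nt late.

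The base at position 23 also went with the start, and encoded and added bases could not be told apart here. Among reads that held the sequence through base 22, base 23 was A in 48 of 923 early reads in the dry period, in 23.6% of those at the listed start, in 47.0% of those 1 nt late and in 65.5% of those 2 nt late. The shares of U were 7.58%, 23.6%, 23.6% and 15.8%. At peak lactation the shares of A were 5.38%, 28.1%, 50% and 62.3%, and those of U 8.85%, 24.7%, 22.1% and 18.5%. From the earliest start to the latest the share of A climbed at each step in both libraries, while that of U was lower at the latest start than at the listed one. Only 130 reads stood behind the shares of the latest start at peak lactation, and its A share had a Wilson 95% interval of 53.7 to 70.2%.

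Single base differences inside the sequence were rare. Among 22-nt reads that were identical to the listed sequence or differed from it by 1 base, 15.6% in the dry period against 17.0% at peak lactation had a difference. Positions are counted from 1 at the 5′ end. Base 22 alone accounted for 12.4% and 14.1%, mostly as A22U with 8348 and 3000 reads, which is the same tag as base 21 followed by U. Base 21 accounted for 1.18% and 0.956%, mostly as G21A with 823 and 212 reads. Over positions 1 to 20 together the share was 1.95% in the dry period against 1.92% at peak lactation, and the interval of the difference held 0 (-0.225 to 0.180 points). Within the seed it was 0.638% and 0.677%. The most frequent differences inside were A3G, with 122 and 50 reads (0.164% and 0.214%), A1G with 96 and 25 reads, and U11G with 85 and 24 reads. No position from 1 to 20 exceeded 0.238% in the dry period, and sequencing errors and variants in the RNA cannot be told apart in these shares.

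**Figure D4:**
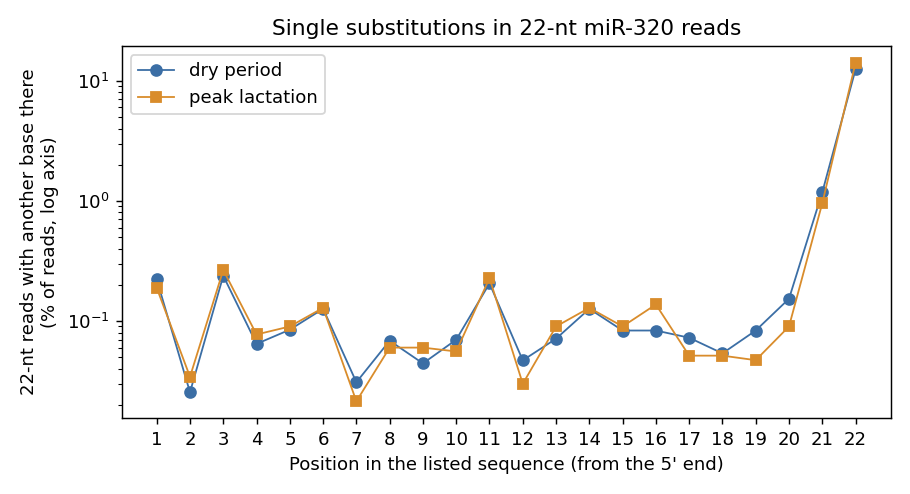
The lines give, for each position of the listed miR-320 sequence (x axis, from the 5′ end), the share of 22-nt reads with another base there (%, log axis) in the 2 libraries. Both lines run together, below 0.3% up to position 20, and rise to about 1% at position 21 and to 12.4% and 14.1% at position 22.

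These measures were set beside those of 68 other conserved miRNAs with a listed sequence of at least 21 nt and at least 1000 reads in each library. Of these, 13 shared tags with another listed miRNA of nearly the same sequence, among them let-7a with let-7c, miR-103 with miR-107, miR-23a with miR-23b-3p and miR-92 with miR-92a, so that some reads entered more than 1 of the 68. miR-320 shared none, and the counts were repeated with the 55 others that shared none. The tailed share of miR-320 in the dry period (53.8%) was above that of 57 of the 68, whose median was 27.4%, and of 47 of the 55. Among the 55 the highest shares were those of miR-24-3p (71.2%), miR-140 (66.1%) and miR-379 (64.6%), so miR-320 was not extreme. Tails are counted from the listed end, so these places also depend on where each listed sequence stops. In the dry period miR-107, listed with 21 nt, had tails on 71.2% of its reads. miR-103, listed with 23 nt and sharing tags with it, had them on 17.4%. The change of the tailed share between the stages stood out more, since the gain of 4.88 points at peak lactation exceeded that of 63 of the 68 others, whose changes had a median of 0.327 points and whose shares were higher at peak lactation in 40 and lower in 28 cases, and it exceeded that of 50 of the 55. Larger gains were found for miR-21, miR-345-3p, miR-127, miR-126 and miR-181b. The increase in mean length, 0.129 nt, exceeded that of 60 of the 68, whose median change was -0.00076 nt, and of 49 of the 55. Mean length was higher at peak lactation for 29 of the 55 and lower for 26.

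The shifted share in the dry period (7.59%) was above that of 56 of the 68 others, which had a median of 0.838%, and of 46 of the 55. The highest of the 55 was miR-101 with 42.4%. The decrease of 1.90 points at peak lactation was larger than that of all but 4 of the 68, namely miR-101, miR-1839 and, with tags shared with other entries, miR-192 and miR-2284x, while their median change was -0.026 points. The share identical to the listed sequence lay near the middle in the dry period, above 33 of 68. Its decrease of 5.47 points was exceeded by 6 of the 68 others. Of the nearest miRNAs by level, miR-29a had tails on 10.3% and 8.42% of its reads and miR-21 on 41.8% and 47.4%, so miRNAs of like abundance differed widely in their ends.

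**Figure D5:**
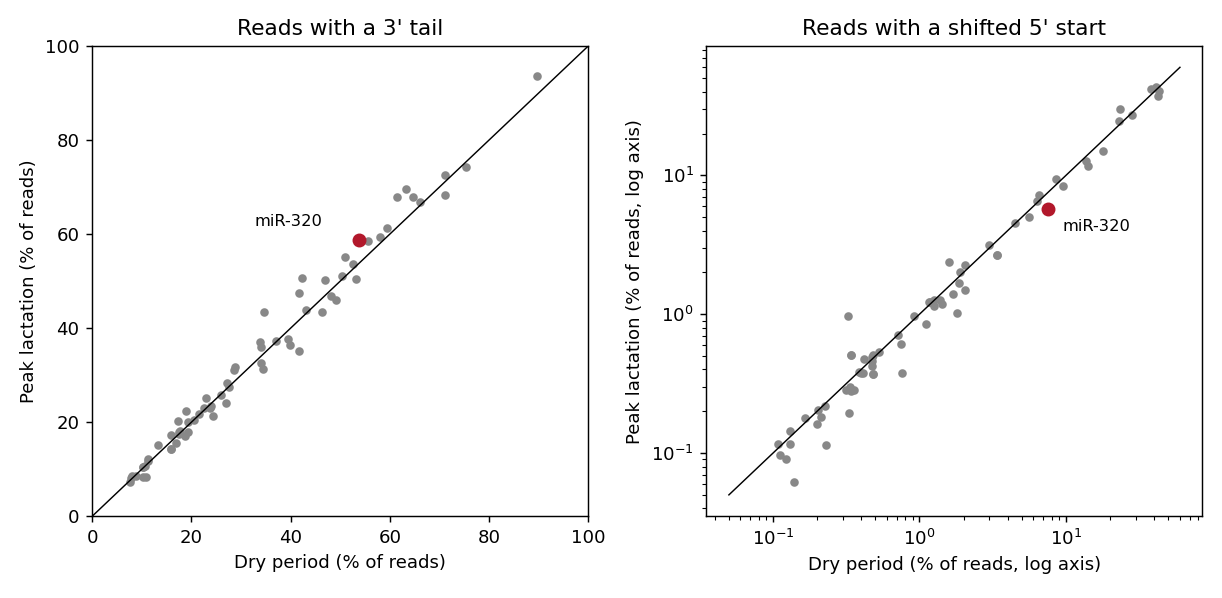
Each point is 1 of 69 conserved miRNAs with at least 1000 reads in each library, placed by the share of its reads (%) in the dry period (x axis) and at peak lactation (y axis), with 3′ tails in the left panel and shifted 5′ starts in the right panel (log axes), and the line marks equal shares. miR-320 lies above the line for tails (53.8 and 58.7%) and below it for shifted starts (7.59 and 5.69%).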

How the data were processed

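Small RNA of mammary gland pools was sequenced in 2 libraries. Small RNA was selected on a gel with a nominal upper limit of 30 nt, and the deposited tags were 18 to 44 nt long. The authors kept reads of sufficient quality that had the 3′ adaptor and an insert, dropped those with 5′ adaptor sequence, with poly(A) or shorter than 18 nt, and deposited every distinct clean read with its length and raw count, without normalization. CASAVA is named in the submitters' processing notes. miRNA sequences, names and arms were taken from the study's list of conserved miRNAs, and no values from it. The members, lists and rules were chosen with earlier results of these data known.

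A tag went to the miRNA that it matched furthest from its first base (18 nt or more), and to each one in case of a tie. Counts were divided by the clean reads and multiplied by 1000000 (RPM). A zero was set to 0.01 RPM. The log2 fold change, the Audic-Claverie p (two-sided from the smaller tail) and its Benjamini-Hochberg adjustment were computed over the 257 miRNAs with at least 1 RPM in either library. Intervals of fold changes were derived from Wilson intervals of how reads divided between the libraries. As reads carried no molecular identifiers, intervals cover counting error only. The depth allowed levels down to 3 reads, 0.202 RPM in the dry period and 0.191 RPM at peak lactation. Named miRNAs were miR-320, those made without Drosha or Dicer, its seed mates, the 5 nearest by level, the 2 ranked above and below it in each library, and, for tags, the 10 most frequent and the top tag of each start. miRNAs at the ends of the comparison with 68 others were named after their values were seen. The scripts were tested on simulated data. The opposite arm and loop were not analysed here because no hairpin sequence was used. Python 3.11.15, numpy 2.4.6, scipy 1.17.1, matplotlib 3.10.9, R 4.3.3, edgeR 4.0.16 and DESeq2 1.42.0 were used, the latter pair for scaling factors only. Alternatives covered counting rules, denominators, filters on low counts, the weight of tags and the choice of comparison miRNAs.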

Additional observations from a re-analysis of the deposited data

How the results depend on the processing

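Each stage had 1 library, so no library could be left out and the spread between goats is unknown. No paired analysis was possible because each stage has 1 pooled library and the labels give no replicate numbers. The fold change of miR-320 kept its direction and call under the 4 other counting rules and the exact conditional binomial test, from -1.78 with identical tags alone to -1.58 with 1 mismatch allowed. It turned to 0.50 with reads of conserved miRNAs, as counted here, as the denominator. It kept its direction but was not called with reads of 21 to 23 nt as the denominator (-0.75), with the TMM factors of edgeR (-0.29) and with the size factors of DESeq2 (-0.19). These 4 denominators gave 15, 82, 48 and 42 conserved miRNAs called lower and 85, 9, 21 and 28 called higher, against 174 and 3 with clean reads. Each denominator shifts the values of all miRNAs by 1 common amount, so miR-320 minus the median of all tested stayed at -0.15. That distance was -0.30 with identical tags alone and -0.06 without the filter on low counts.

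With only tags of at least 10 reads, the identical share at peak lactation became 38.5%, the shifted shares 7.25% and 5.14%, the share with 1 substitution at peak lactation 16.2% and the mean lengths 22.58 and 22.70 nt. Shifts of up to 1 nt alone gave 7.17% and 5.43%. Counting each tag once, whatever its reads, gave in the dry period and in peak lactation 0.214% and 0.276% identical, 43.5% and 35.2% shifted, 19.9% and 27.9% beyond the listed end, 98.5% and 98.5% with 1 substitution, and mean lengths of 23.74 and 24.06 nt. The directions between the stages held under these settings for the shifted share, the share beyond the listed end and the mean length, while the identical share rose and the substituted share did not differ when each tag was counted once, where 1 tag is identical by definition. Among miRNAs with at least 5000 reads in each library, the gain in tails of miR-320 exceeded 97.7% of the others and 2.33% had a larger loss of the identical share. Among 3p-arm miRNAs 3.33% had a larger loss. With only the 55 miRNAs that share no tags with another, an alternative chosen after seeing the data, the 8 places of miR-320 stayed close to those among the 68. The place that moved most was that of the change in shifted share. Of the others, 5.88% had a lower value among the 68 and 3.64% among the 55.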
